A study of Rattus norvegicus with 7 samples.

Results

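Wide domains of the DNA- and RNA-binding protein YBX1 are described here: peaks of at least 600 bp in the 3 deposited YBX1 lists, on chromosomes 1 to 20, X and Y. They were chosen by length alone, and 321 of 998 YBX1 peaks on these chromosomes met the rule, out of 6123 peaks of all kinds in the series. The lists come from chromatin immunoprecipitation and sequencing (ChIP-seq) in A10 cells, an established rat smooth muscle line from the thoracic aorta, used at passages 10 to 15. ART is the YBX1 ChIP in cells overexpressing FLAG-tagged Arteridin, a protein encoded by the Phenotype Switching Regulator gene. PSR is the YBX1 ChIP in cells overexpressing the ATT mutant of lncPSR, the non-coding product of that gene. NC is the YBX1 ChIP that was matched to the untreated cells, since the other conditions took the remaining titles. ORF and CTR are Arteridin ChIP libraries with and without Arteridin overexpression. Plasmids were introduced by lipid transfection, and all groups share the same line. Each condition had 1 library, so no difference between conditions carries a replicate check and no test between them was made. The labels name 3 YBX1 antibodies without saying which library used which. The ART and PSR titles start with X and the titles of NC and of the YBX1 input with B, letters that the labels do not explain. The lists hold no read totals, so the depth of each library is unknown. No source used here names the genome build, but the YBX1 lists use the sequence names of the rat build Rnor_6.0. The Arteridin lists name their sequences in another way, and distances between Arteridin and YBX1 peaks take both to share a build. No annotation of that build was used, so positions are given without gene context.

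YBX1, or Y-box binding protein 1, carries a cold-shock domain that binds single-stranded DNA and RNA as well as double-stranded Y-box sequences. It acts in transcription, splicing and the control of mRNA translation and stability. In smooth muscle it is known as one of the single-strand binding factors that repress the α-actin gene. A broad-peak list joins neighbouring enriched stretches into regions, so a wide domain can be a single long stretch or several shorter ones joined by the caller.

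The ART list held 212 wide domains, 36.0% of its 589 peaks on assembled chromosomes, and they covered 285 kb, 69.3% of the listed sequence. The PSR list held 107, 32.4% of 330 peaks, covering 118 kb or 61.5%. The NC list held 2, 2.53% of 79 peaks, covering 2.51 kb. The lowest expected level that could be solved, meaning the fragments per position that the caller expects without enrichment, was 0.362 in ART and 0.380 in PSR but 0.048 in NC. It was solved from 26, 14 and 20 peaks. The part of this gap in the low number of NC domains was not tested.

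Lengths ran from 600 to 8657 bp in ART, with a median of 956 bp and quartiles of 784 and 1426 bp. In PSR they ran from 609 to 3368 bp, with a median of 928 bp and quartiles of 734 and 1252 bp. The medians lay close to each other, and the lists parted at the long end. ART held 35 domains of 2000 bp or more and PSR 7. A further 63 ART and 37 PSR domains lay between 1000 and 2000 bp, and 114 and 63 were shorter than 1000 bp. No neighbouring peaks of ART stood closer than 944 bp, and none of PSR closer than 941 bp, so shorter gaps are not seen in the lists. Whether a wide domain contains shorter unenriched stretches cannot be seen from the lists.

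**Figure D1:**
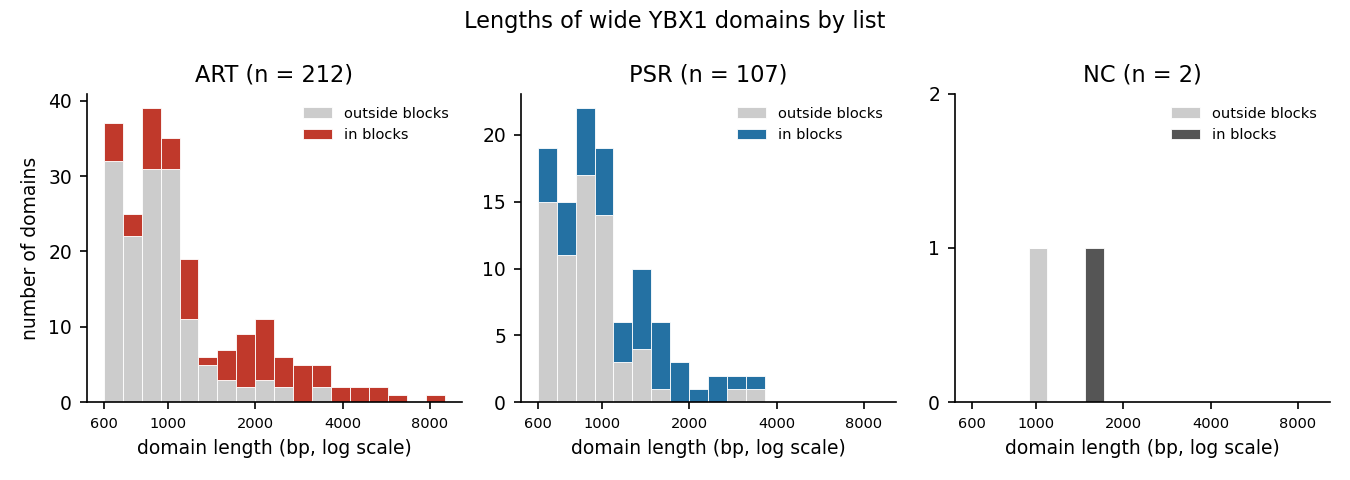
Number of wide YBX1 domains (y axis) by length in bp (x axis, log scale) in the ART, PSR and NC lists; coloured parts are domains in blocks of at least 3 wide loci within 100 kb of each other, grey parts lie outside them. Domains of 2000 bp or more number 35 in ART and 7 in PSR, of which 28 and 5 are in blocks.

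The threshold cut through a continuous run of lengths. The longest peaks left out were 596 bp in ART (chromosome 6 from 138906248 to 138906843, fold 3.88), 593 bp in PSR (chromosome 1 from 103841096 to 103841688, fold 4.48, and another of this length on chromosome 16) and 592 bp in NC (chromosome 11 from 33176507 to 33177098, fold 3.77). The shortest kept were 600 bp in ART (chromosome 14 from 46670264 to 46670863, fold 2.59), 609 bp in PSR (chromosome 3 from 72864601 to 72865209, fold 4.92) and 996 bp in NC. Fold here is the authors' enrichment over the expected level, averaged over a peak, and −log10 q is their adjusted significance. Both depend on the background of the list and are compared only within it. The fold adds a constant to the library and to the expected level, which lowers it most where the expected level is low.

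Wide domains had lower median folds than shorter peaks. The median fold was 4.20 in ART (range 1.51 to 11.19) and 3.34 in PSR (1.49 to 5.15), against 4.53 and 4.60 for the shorter peaks of the same lists. Median −log10 q was alike, at 2.17 for wide and for shorter ART peaks, and at 2.01 and 2.02 in PSR. At −log10 q, 23 of 212 ART domains stood at 5 or above, where 8.83% of all ART peaks did, and 14 of 107 PSR domains, where 7.88% of all PSR peaks did. Neither NC domain stood there, where 3.80% of all NC peaks did. Longer domains had lower folds: over the 212 ART domains the rank correlation of length with fold was −0.44, and over the 107 PSR domains −0.45. With −log10 q it was 0.42 and 0.37. The domains of a list share 1 library and its input, and those in a block share their surroundings, so these correlations are descriptions only.

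Fold and −log10 p together imply the expected level at a domain. It was taken as the highest level at which 1 Poisson count would return both averages. At low levels a lower solution can also exist and averaging raises the value, so a figure under 2 says only that the level was low. The shorter NC peaks had a median of 3.01 by this measure, while the lowest level solved in NC was 0.048. Values between 2 and 5 may thus also overstate the level. On this scale few wide domains lay at middle values: 119 ART domains lay under 2, 12 between 2 and 5, and 81 at 5 or above. In PSR the numbers were 50, 2 and 55. Of all ART peaks 21.9% reached a level of 5, and of all PSR peaks 26.4%. In NC 1 of the 2 domains reached it, where 3.80% of all NC peaks did. The highest level was 1656 in ART and 1730 in PSR, at the same place on chromosome 1, and 16 domains of each of these 2 lists reached 50. The boundary of 5 was set after the values were seen.

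The domains with a high level differed from the rest in length, fold and position. In ART the 81 domains at 5 or above had a median length of 1525 bp, a median fold of 2.83 and a median −log10 q of 3.41, and they lay on 13 chromosomes. The 131 below 5 had medians of 868 bp, 4.42 and 1.83 and lay on 21 chromosomes. In PSR the 55 at 5 or above had medians of 1202 bp, 2.40 and 2.79, on 12 chromosomes, and the 52 below had 826 bp, 4.51 and 1.60, on 18. Length rose with level: the rank correlation was 0.48 in ART and 0.47 in PSR. Since the level is computed from fold, the difference in fold between the sets is in part built in.

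**Figure D2:**
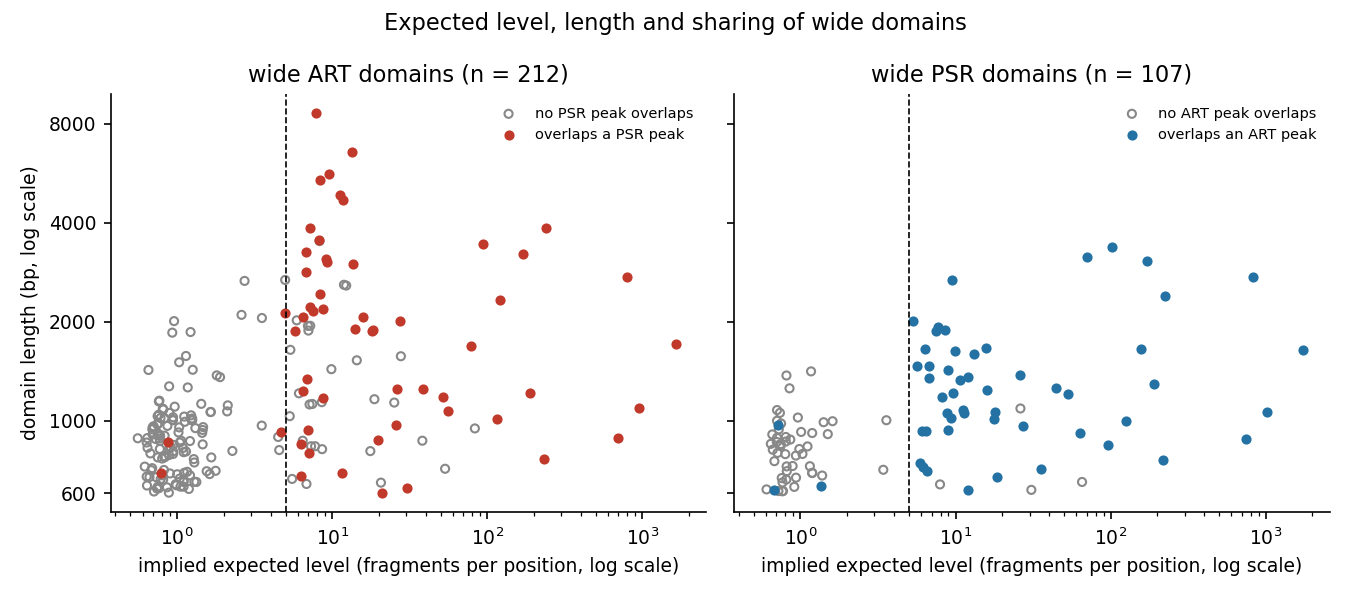
Implied expected level in fragments per position (x axis, log scale) against length in bp (y axis, log scale) for each wide ART domain (left) and PSR domain (right); filled points overlap a peak of the other list, open points do not, and the dashed line marks a level of 5. Filled points are nearly all right of the line, with 52 of 81 ART and 51 of 55 PSR domains shared there, against 4 of 131 and 3 of 52 left of it.

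Wide domains clustered. Overlapping wide domains of the 3 lists merged into 271 loci, and loci up to 100 kb apart were linked. Of the 271, 177 stood alone, 24 formed 12 pairs and 70 formed 10 blocks of at least 3 loci. The blocks lie on 7 chromosomes and span 750 kb in all. They held 68 of the 212 wide ART domains (32.1%, 95% Wilson interval 26.2 to 38.6) and 40 of the 107 wide PSR domains (37.4%, 28.8 to 46.8). Wilson intervals cover counting error only. Of all ART peaks 13.8% lay inside the blocks, and of all PSR peaks 17.0%. Since wide domains define the blocks, nothing is read from that difference. Domains in blocks made up 50.2% of the wide ART sequence and 45.8% of the wide PSR sequence.

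Another peak of the same list, of any length, lay within 10 kb of 75 wide ART domains (35.4%, 29.3 to 42.0) and of 44 shorter ART peaks out of 377 (11.7%, 8.81 to 15.3). For PSR these were 46 of 107 (43.0%, 34.0 to 52.5) and 25 of 223 (11.2%, 7.71 to 16.0). Peaks of a block are not independent of each other, so such intervals are too narrow, and the differences were not tested.

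The block with the most loci lies on chromosome 14 from 46522534 to 46682855 and spans 160 kb. It held 24 wide ART domains of 600 to 5377 bp, summing to 51.4 kb, and 11 wide PSR domains of 615 to 2011 bp, summing to 13.9 kb. ART peaks of any length ran along the whole block, with a median gap of 3.19 kb and a widest gap of 13.8 kb. PSR peaks stood further apart, with a median gap of 7.27 kb. Folds ran from 2.18 to 3.94 in ART and 2.37 to 3.56 in PSR, and the median levels were 7.75 and 8.16. No NC peak was listed there. PSR peaks overlapped 14 of the 24 wide ART domains, and ART peaks overlapped all 11 wide PSR domains. The longest ART domain of the block, 46602728 to 46608104, had a fold of 3.33 and held a single PSR peak of 1175 bp.

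A block on chromosome 1 from 11906517 to 11974907 had the highest ART coverage among the 5 blocks of longest span. In its 68.4 kb, 12 wide ART domains covered 33.4 kb, 48.8% of the span, and 7 wide PSR domains covered 10.1 kb. It holds the longest domain of ART, 11960195 to 11968851 (8657 bp, fold 3.21, −log10 q 3.48), and the next longest, 11924259 to 11930812 (6554 bp, fold 3.01, −log10 q 5.49). The levels of these were 7.83 and 13.4. In PSR the same stretches held 1866 and 674 bp of wide domain. PSR sequence was nearly all inside ART, at 94.8%, whereas 28.7% of the wide ART sequence was inside a wide PSR domain.

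Chromosome 6 has a pair of blocks. The first, from 30630777 to 30647710, had 5 wide ART domains covering 6.82 kb and 3 wide PSR domains covering 5.04 kb, with median folds of 3.19 and 2.81. The other, from 31046711 to 31070870, had 5 covering 13.8 kb and 4 covering 3.72 kb, with median folds of 3.62 and 3.06. It holds the third longest ART domain, 31055345 to 31060961 (5617 bp, fold 3.24, −log10 q 4.75), inside which PSR listed 3 separate wide domains. On chromosome 5 a compact block from 91124515 to 91137816 was covered by wide ART domains over 73.8% of its 13.3 kb, and by wide PSR domains over 40.1%. The ART domain of 4843 bp at its start (91124515 to 91129357, fold 2.82) held 2 of its 4 wide PSR domains. Median levels in these 3 blocks were 5.32 to 7.49 in ART and 7.53 to 9.50 in PSR.

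Another kind of block had very low folds and high −log10 q. On chromosome 1 from 180644615 to 180809470, 5 wide domains of ART and 5 of PSR sat at the same 5 loci, up to 86.6 kb apart in ART. Folds were 1.57 to 2.22 in ART and 1.49 to 1.98 in PSR, while −log10 q reached 164 and 117. Median levels were 697 and 744. The wide domains with the highest −log10 q of ART and of PSR lie there, 180806390 to 180807276 in ART (887 bp, fold 2.22) and 180806398 to 180807275 in PSR (878 bp, fold 1.98). At 180644615 to 180646321 the ART fold was 1.57 and the level 1656. The 2 lists outlined these loci almost alike: 99.9% of the wide PSR sequence and 81.0% of the wide ART sequence of the block were inside both.

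The block on chromosome 13 from 33485613 to 33621606 also had low folds, with 5 wide domains in ART and 5 in PSR. Of these, 4 of ART and 3 of PSR overlapped the other list. Median folds were 1.80 and 1.93 and median levels 55.8 and 63.7. It holds the only locus that was wide in all 3 lists. There ART listed 33502468 to 33505200 (2733 bp, fold 1.77, −log10 q 80.7), PSR 33502454 to 33505187 (2734 bp, fold 1.73, −log10 q 74.5) and NC 33503550 to 33505067 (1518 bp, fold 1.59, −log10 q 2.91). The implied levels were 798, 823 and 109. The labels show 1 input for the YBX1 libraries, and no source used here says whether all 3 lists were called against it. With a common input these levels would differ by scaling alone, so nothing about the 3 ChIP libraries is read from them.

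Smaller blocks completed the set. On chromosome 1, next to the low-fold block, 3 wide ART domains between 180927031 and 181077243 had a median fold of 1.73 and a median level of 53.4, and PSR listed no peak of any length. The chromosome 2 block, 49355600 to 49365106, had 3 ART domains with a median fold of 2.16 and 1 PSR domain with a fold of 2.40. In the chromosome 19 block, 5830315 to 5837106, 3 ART domains with folds of 3.97 to 4.34 covered 67.0% of 6.79 kb, and PSR had 1 shorter peak there.

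**Figure D3:**
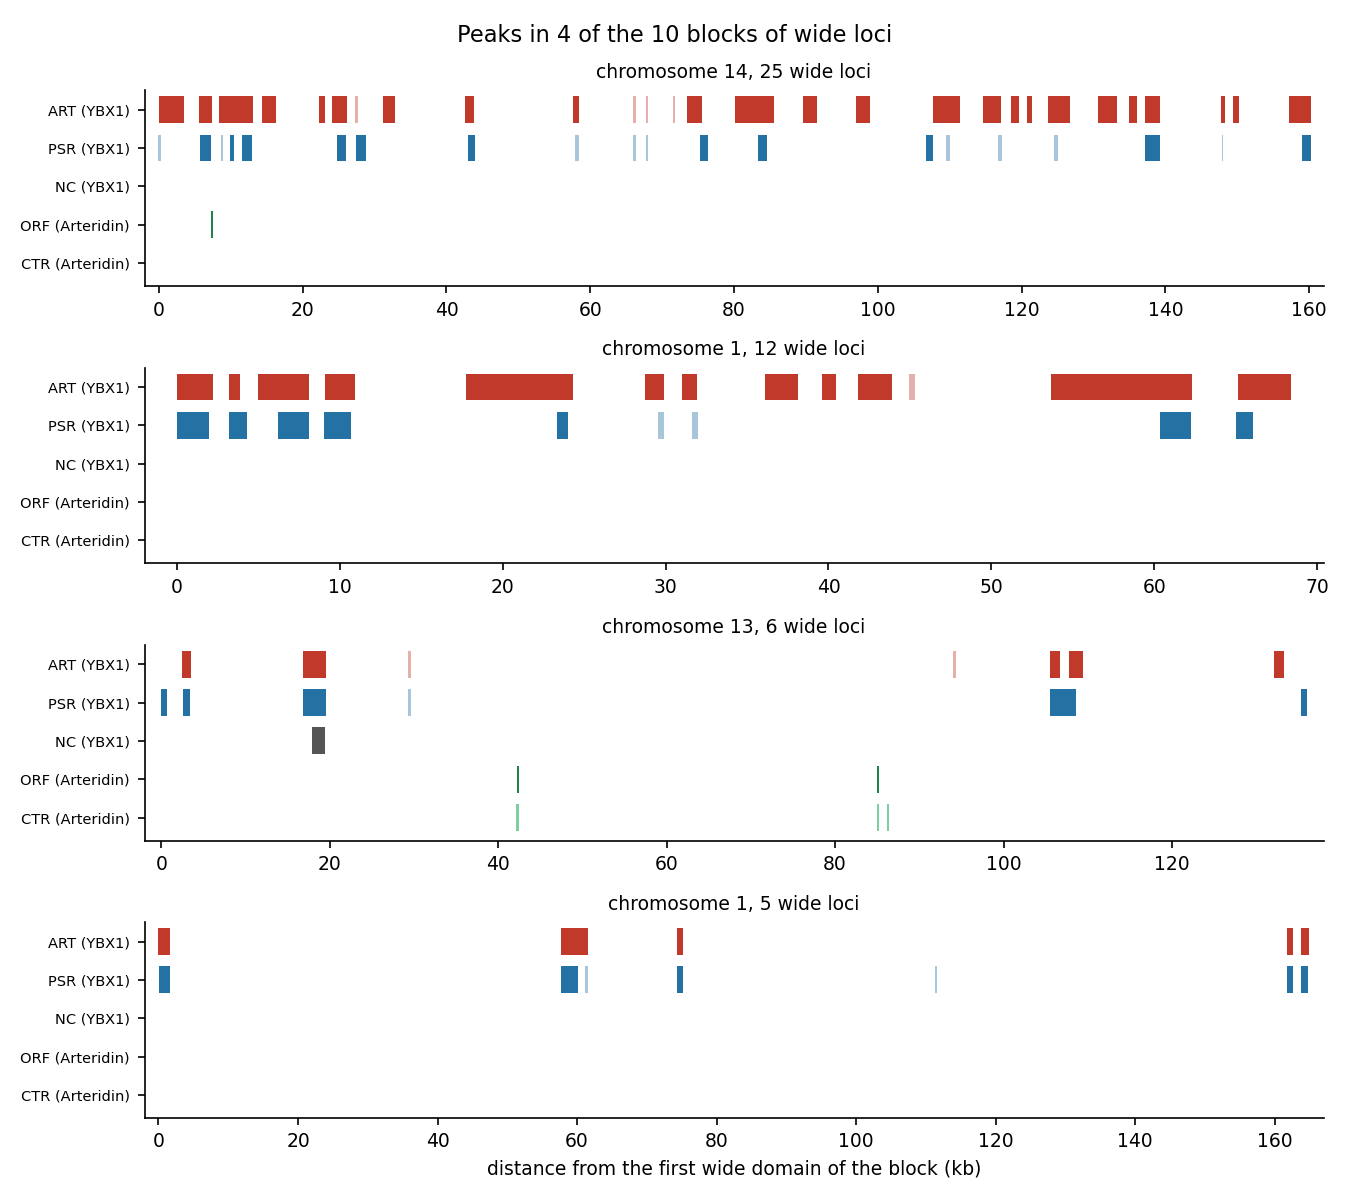
Peaks in the 3 blocks with most wide loci and in the first by position of 3 blocks with 5 loci each, by list (rows) and distance in kb from the first wide domain of the block (x axis); dark bars of the YBX1 rows are wide domains, pale bars shorter peaks, and bars under 250 bp are drawn at 250 bp. On chromosome 14 and in the first chromosome 1 block ART domains outnumber and outreach those of PSR, whereas in the chromosome 1 block with 5 loci the wide domains of the 2 lists sit at the same places.

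Chromosome 1 held more wide domains than any other chromosome in both lists, with 40 ART domains (18.9%, 14.2 to 24.7) and 23 PSR domains (21.5%, 14.8 to 30.2), and all peaks of the lists had 16.6% and 18.2% there. The other shares did not go one way with the presence of a block: chromosome 2, which has one, lay below the share of all peaks in both lists (9.91% against 10.4% in ART and 6.54% against 9.70% in PSR), and chromosome 3, which has none, lay above it (4.72% against 3.90% and 6.54% against 5.45%). Chromosome 14 held 25 ART domains (11.8%, 8.12 to 16.8) and 13 PSR domains (12.1%, 7.24 to 19.7), against 7.64% and 8.48% of all peaks. By length chromosome 14 had 18.4% of the wide ART sequence, and outside the block it held 1 ART and 2 PSR domains. Chromosome 6 held 17 ART domains (8.02%, 5.07 to 12.5) and 11 PSR domains (10.3%, 5.84 to 17.5), of which 7 and 4 were outside its blocks. For chromosome 14 in ART and chromosome 6 in PSR the interval of the wide share lay just above the share of all peaks, and for every other chromosome of both lists it included that share. Domains of 1 block are not independent, so these intervals are too narrow.

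Chromosome X differed between the lists. It held 14 wide ART domains (6.60%, 3.97 to 10.8), none of them in a block, and 2 wide PSR domains (1.87%, 0.514 to 6.56), although 5.09% of all ART and 5.15% of all PSR peaks lay there. Chromosome 8 held 6 wide ART domains and no wide PSR domain out of 107, which by a floor of 3 counts allows a share of up to 2.80% (upper Wilson limit 3.47%). The intervals for chromosome X overlap, and the differences were not tested.

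**Figure D4:**
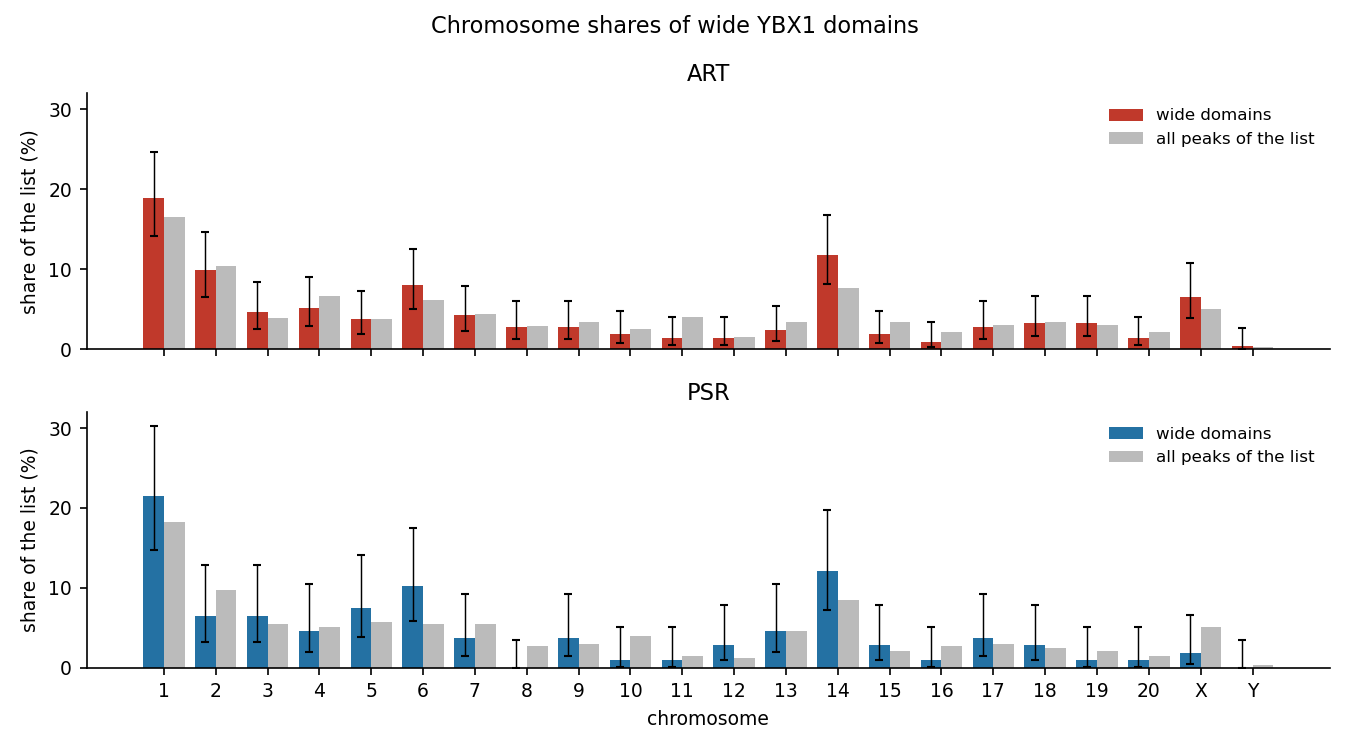
Share of wide domains (coloured bars, with 95% Wilson intervals) and of all peaks of the list (grey bars) on each chromosome (x axis), in percent of the ART list (top) and the PSR list (bottom). Wide shares stand above those of all peaks in both lists on chromosomes 1, 3, 5, 6 and 14, with the interval clear of the share of all peaks for chromosome 14 in ART and chromosome 6 in PSR.

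Sharing between ART and PSR was uneven. A PSR peak overlapped 56 of the 212 wide ART domains (26.4%, 20.9 to 32.7), where 15.8% of all ART peaks were overlapped. An ART peak overlapped 54 of the 107 wide PSR domains (50.5%, 41.1 to 59.8), where 30.0% of all PSR peaks were overlapped. Longer peaks meet others more readily by their length alone. The partner was itself wide for 44 of the ART and 48 of the PSR domains. Asking that the middle base of the domain lie inside a partner peak, which takes away part of that advantage, left 40 ART domains (18.9%) and 45 PSR domains (42.1%). By the same rule 36 of 377 shorter ART peaks (9.55%) and 45 of 223 shorter PSR peaks (20.2%) were shared.

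Shared domains were longer and lower in fold than unshared ones. Their median length was 1881 against 888 bp in ART and 1208 against 819 bp in PSR. Median folds were 2.83 against 4.32 in ART and 2.63 against 4.49 in PSR, and median −log10 q values were 4.20 against 1.90 and 2.73 against 1.62. By length class the overlapped share of ART was 12.3% of 114 domains under 1000 bp, 25.4% of 63 between 1000 and 2000 bp and 74.3% of 35 at 2000 bp or more. In PSR it was 28.6% of 63, 78.4% of 37 and 7 of 7. Longer domains have the advantage of their length here. By the middle base the shares were 10.5%, 23.8% and 37.1% in ART and 23.8%, 64.9% and 85.7% in PSR.

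Sharing went with the expected level. Of wide domains at a level of 5 or more, 52 of 81 in ART (64.2%, 53.3 to 73.8) and 51 of 55 in PSR (92.7%, 82.7 to 97.1) overlapped the other list. Of those below 5, 4 of 131 in ART (3.05%, 1.19 to 7.59) and 3 of 52 in PSR (5.77%, 1.98 to 15.6) did. Shorter peaks divided in the same direction, with 19 of 48 against 18 of 329 in ART (39.6% and 5.47%) and 28 of 32 against 17 of 191 in PSR (87.5% and 8.90%). In both lists the intervals of wide and shorter peaks overlapped at either level. In ART at 5 or more they did so only just (53.3 to 73.8 for wide and 27.0 to 53.7 for shorter peaks). An overlap of intervals does not show that width makes no difference. By the middle base, 44.4% of the wide ART domains at a high level and 80.0% of those of PSR were shared, and 39.6% and 87.5% of the shorter peaks. The part of the input in this sharing was not tested.

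**Figure D5:**
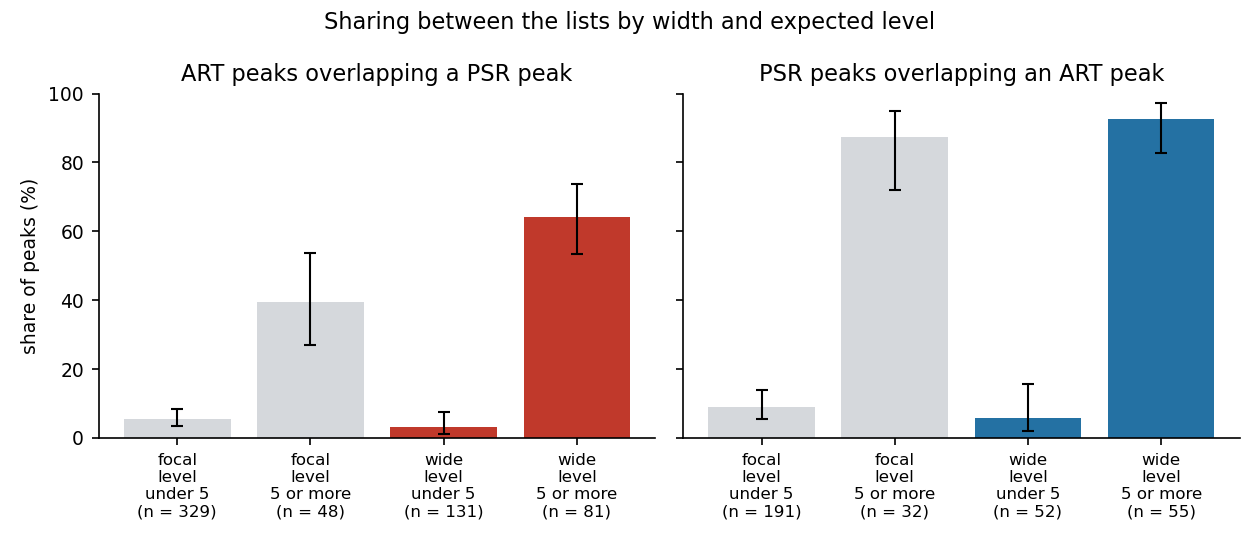
Share of ART peaks overlapping a PSR peak (left) and of PSR peaks overlapping an ART peak (right), in percent with 95% Wilson intervals, for peaks under 600 bp (grey, focal) and wide domains (coloured) at an implied expected level under 5 or of 5 or more. Bars at the low level stay at 3.05 to 8.90%, and bars at the high level reach 39.6 to 92.7%.

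The same held by position. In blocks 43 of 68 wide ART domains (63.2%, 51.4 to 73.7) and 38 of 40 wide PSR domains (95.0%, 83.5 to 98.6) were shared, and outside them 13 of 144 (9.03%, 5.35 to 14.8) and 16 of 67 (23.9%, 15.3 to 35.3). A level of 5 or more was found for 62 of the 68 ART and all 40 PSR domains in blocks, and for 19 of 144 and 15 of 67 outside. Among those 19 and 15, 11 and 13 were shared, so level and sharing went together outside the blocks too. Of the 156 wide ART domains that no PSR peak overlapped, 20 had one within 5 kb, and the median distance was 2160 kb.

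Where both lists were wide, at 43 loci on 11 chromosomes, 33 of them in blocks, ART was the longer at 35 and PSR at 8. Median lengths were 2070 and 1354 bp. PSR lay mostly within ART: 91.3% of the PSR sequence at these loci was common to both, against 57.0% of the ART sequence. The extent to which the outlines matched went with the level. At the 26 loci under a level of 20 in ART, the median ART to PSR length ratio was 1.59 (range 0.658 to 9.72) and a median of 62.9% of the ART sequence was common. At the 17 loci of 20 or more, the ratio was 1.02 (0.907 to 1.75) and the common share 97.6%. Of the 26 loci 25 lay in blocks, and of the 17 loci 8 did, so level and position in blocks were not separated here. The boundary of 20 too was set after the values were seen.

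At these 43 loci the level of PSR over that of ART had a median ratio of 1.03 (0.707 to 1.39), where the lowest levels of the lists stood at 1.05. If the lists share the input, such closeness is set by scaling, and nothing is read from it. The levels ran from 4.68 to 1656 in ART. Examples outside blocks were chromosome 18 from 38413967 to 38417173 (ART 3207 bp, fold 1.94, level 169; PSR 3064 bp, fold 1.82, level 171) and chromosome 3 from 133994032 to 133997483 (ART 3437 bp, fold 2.0, level 93.6; PSR 3368 bp, fold 1.88, level 102). The PSR domains of these loci are the third longest and the longest of that list. Second was chromosome 13 from 33591126 to 33594277 (3152 bp, fold 1.93), followed by the PSR domain at the locus wide in all 3 lists and by chromosome 6 from 30630777 to 30633451 (2675 bp, fold 2.81).

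The wide domains of highest fold were of another sort: outside blocks, 609 to 1572 bp long and at a low level, 0.557 to 1.14 in ART and 0.679 to 0.850 in PSR. In ART they were led by chromosome 10 from 84915178 to 84915868 (691 bp, fold 11.19, −log10 q 15.6, level 0.792), which PSR listed as a shorter peak of 473 bp with a fold of 12.56 and NC as one of 286 bp with a fold of 6.70. The next 4 had no PSR peak: chromosome 4 from 157607261 to 157608143 (fold 8.08) and from 175274275 to 175274967 (fold 5.90), chromosome 5 from 173429485 to 173430362 (fold 7.27) and chromosome X from 16512315 to 16513886 (fold 5.59). Their −log10 q ran from 3.84 to 7.76. In PSR the 5 highest had folds of 4.89 to 5.15, −log10 q of 2.01 to 2.48 and no ART peak. Chromosome 3 had 2 of them, 15730541 to 15731265 and 72864601 to 72865209. The others were 2480713 to 2481322 on chromosome 15, 82603952 to 82605204 on chromosome 2 and 136625050 to 136625801 on chromosome 1.

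The low-level shared domains were chosen after their values were seen. Besides chromosome 10, 3 wide ART domains below a level of 5 met a PSR peak. Chromosome 2 from 240715806 to 240716664 had a fold of 4.47 and a PSR peak of 247 bp, and the other two, on chromosomes 6 and 14, were in blocks at levels of 4.68 and 4.99. The 3 such PSR domains met ART peaks of 270 to 357 bp, on chromosomes 14, 18 and 20. Outside the blocks, no low-level locus was therefore wide in both lists.

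NC had 2 wide domains. One is the chromosome 13 locus described above. The other, chromosome 4 from 181484415 to 181485410 (996 bp, fold 4.20, −log10 q 1.40), met no peak of ART or PSR. Of all NC peaks 8.86% met one. Seen from the other side, an NC peak overlapped 2 wide ART domains (0.943%), where 1.02% of all ART peaks were overlapped, and 2 wide PSR domains (1.87%), where 1.82% of all PSR peaks were. These were the chromosome 13 locus in both, the chromosome 10 domain in ART, and a PSR domain on chromosome 4 spanning 77447780 to 77448429 (650 bp, fold 1.94, level 65.4), which was picked after its values were seen.

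Arteridin peaks rarely lay in wide YBX1 domains. A peak of ORF or CTR overlapped 5 wide ART domains (2.36%, 1.01 to 5.40), where 1.19% of all ART peaks were overlapped, and 2 wide PSR domains (1.87%, 0.514 to 6.56), where 0.606% were. Within 5 kb there was an Arteridin peak at 14 wide ART domains (6.60%, 3.97 to 10.8; 3.57% of all ART peaks) and at 9 wide PSR domains (8.41%, 4.49 to 15.2; 3.03% of all PSR peaks). Of these, 10 ART domains lay in 4 blocks and 8 PSR domains in 3, and domains of the chromosome 6 and 14 blocks share Arteridin peaks. Outside blocks the shares were 4 of 144 ART domains (2.78%) and 1 of 67 PSR domains (1.49%). These lie below the shares of all peaks. All peaks include those in blocks and the counts are small, so nothing is read from that difference. Within 1 kb the numbers over all wide domains were 7 and 4, where 1.70% of all ART and 1.21% of all PSR peaks had one. Within 50 kb they were 34 and 25 (16.0% and 23.4%), where 11.9% and 10.9% of all peaks did. No NC domain had one within 5 kb, where 1.27% of all NC peaks did, and 1 of 2 had one within 50 kb, where 6.33% did.

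The richest site was chromosome 1 around 148643432 to 148644439. PSR listed a domain of 1008 bp there (fold 2.33, level 17.6) and ART one of 872 bp from 148643474 to 148644345 (fold 2.20, level 19.8), and 7 ORF and 6 CTR peaks lay within 5 kb. The highest Arteridin fold among them was 4.52, in CTR from 148644525 to 148644586, with 37 reads at the summit over an expected 7.40. Inside the domains, ORF from 148643495 to 148643570 had 57 reads over an expected 22.5, a fold of 2.46, and CTR from 148643499 to 148643551 had 50 over 19.4, a fold of 2.50. The YBX1 and Arteridin lists thus gave low folds over a raised expected level at this site, the latter with and without Arteridin overexpression.

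The other overlapped domains held 1 or 2 Arteridin peaks. In the first chromosome 6 block the ORF peak from 30644104 to 30644176 (41 reads over 16.0, fold 2.47) overlapped the ART domain from 30642281 to 30644167 (1887 bp, fold 2.56) and the PSR domain from 30642460 to 30644117 (1658 bp, fold 2.26). In the chromosome 14 block the ORF peak from 46529825 to 46529907 (46 reads over 19.7, fold 2.27) overlapped the ART domain from 46528053 to 46529953 (1901 bp, fold 2.83) and lay 30 bp past the end of a PSR domain. At the start of chromosome X, ORF from 359726 to 359860 (fold 4.41) and CTR from 359723 to 359860 (fold 3.83) overlapped the last bases of the ART domain from 358923 to 359729 (807 bp, fold 2.19). Only chromosome 1 from 148166542 to 148167684 (1143 bp, ART fold 4.88, level 0.762) joined a low-level domain with an Arteridin peak: ORF from 148166768 to 148166846 had 6 reads over 0.361, the lowest level of that list.

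Arteridin peaks near wide domains had high expected levels of their own. Within 5 kb of a wide domain there were 14 different ORF peaks, with a median level of 11.8 and a range of 0.361 to 27.2, and 10 CTR peaks, with a median of 10.8 and a range of 0.925 to 31.5. A level of 5 or more was found for 11 of the 14 ORF peaks and 8 of the 10 CTR peaks, where 2.09% of all ORF and 2.84% of all CTR peaks on assembled chromosomes reached it. The chromosome 1 site around 148643432 carried 7 of these ORF and 6 of these CTR peaks. Without it, an alternative chosen after seeing the data, 4 of 7 ORF peaks (median level 13.2) and 2 of 4 CTR peaks (median level 7.10) reached 5. With it, their median folds were 2.55 and 3.19, against 5.63 and 5.65 over all. Of the peaks over all, 2571 of 2922 in ORF and 1755 of 1971 in CTR lay in the first 12 Mb of chromosome 6. That stretch held 1 wide ART and 1 wide PSR domain. The shares and folds over all peaks thus mostly describe that stretch, and those outside it were not computed. By YBX1 level, Arteridin was within 5 kb of 12 of 81 wide ART domains at 5 or more (14.8%) and 2 of 131 below (1.53%). In PSR it was near 9 of 55 (16.4%) and 0 of 52, which by the same floor allows up to 5.77% (upper Wilson limit 6.88%). Shorter peaks divided in the same direction in ART, with 4 of 48 (8.33%) at 5 or more and 3 of 329 (0.912%) below. In PSR 1 of 32 and 0 of 191 shorter peaks had an Arteridin peak within 5 kb. The Arteridin lists come from their own libraries, sequenced as single-end reads of 50 nt against paired-end reads of 150 nt for YBX1, so the levels at these places come from separate libraries. The part of the inputs was not tested.

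In the first 12 Mb of chromosome 6, where ORF listed 2571 Arteridin peaks and CTR 1755, there was 1 wide ART domain and 1 wide PSR domain, named here after their values were seen. The ART domain, 7642670 to 7644528 (1859 bp, fold 4.33, level 1.22), had an ORF peak 2750 bp away and a CTR peak 4431 bp away, and no Arteridin peak inside it. The PSR domain, 4005016 to 4005851 (836 bp, fold 4.79, level 0.744), had none within 5 kb.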

How the data were processed

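Peak lists of 5 ChIP libraries and no list for the 2 inputs were used. The submitters' processing notes name MACS2 beside Bowtie2, SAMtools, FastQC and HOMER. No source used here gives their versions and settings or the genome build. The authors deposited for each peak a fold, −log10 p and −log10 q, and a score. The fold was solved as a ratio of the library to the expected level, with the same constant added to both. It is therefore not the plain ratio of the reads to the expected level given for a peak. The deposited score equals the whole part of 10 times −log10 q in every row. In the YBX1 broad-peak lists these values are averages over a peak, so they do not show how signal varies within a wide domain.

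Lengths, overlaps (at least 1 bp), blocks (loci up to 100 kb apart, at least 3 loci) and shares with 95% Wilson intervals were computed with Python 3.11.15, pandas 2.3.3, numpy 2.4.6, scipy 1.17.1 and matplotlib 3.10.9, and tested on simulated data. The expected level of a peak was solved as the Poisson mean that returns its fold and −log10 p. For the level implied by the averages of a YBX1 peak, the highest such mean was kept. No replicates exist, so no test was made. Named regions were all blocks, the 5 longest and 5 highest-fold domains of ART and of PSR, all NC domains, domains overlapping Arteridin peaks, loci wide in all lists, and the peaks nearest to 600 bp. Members and lists were chosen with earlier results of these data known. Peaks outside the assembled chromosomes were left out. Alternatives changed the length, the −log10 q threshold, the block rule, the overlap rule and the Arteridin distance.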

Additional observations from a re-analysis of the deposited data

Results flagged for a closer look

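Outside the assembled chromosomes, 8 of the 19 ART peaks were also at least 600 bp long. The 8 lay on unplaced sequences or on sequences assigned to chromosome Y without a position. They were set apart because these sequences enter none of the comparisons above. Their folds ran from 3.26 to 30.58 and the longest had 1281 bp. PSR had 2 such peaks of 11, with folds of 36.94 and 38.59, and NC 2 of 3, with folds of 60.90 and 66.43. NC thus had as many wide peaks on unplaced sequences as on the assembled chromosomes. Its 2 wide peaks there lay on the same sequences as those of PSR, and ART had wide peaks on both.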

How the results depend on the processing

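No paired analysis was possible because the conditions have a single library each, and for the same reason no library could be left out. Of 85 alternative values 28 stayed within the interval of the value above, or within 1.5 times for a count, and 57 moved. The cause was not tested beyond what each alternative does by construction, such as keeping fewer or longer peaks. A length of at least 1000 bp left 98 ART, 44 PSR and 1 NC domains with medians of 1547 and 1362 bp; 43.9% and 52.3% were in blocks, and 42.9% of ART, 81.8% of PSR and 100% of NC domains were shared. At 500 bp the medians were 891 and 862 bp. A −log10 q of at least 2 left 120, 55 and 1 domains, with medians of 1076 and 1080 bp, 47.5% and 50.9% in blocks, and 70.9% of PSR and 100% of NC domains shared. At 5 there were 23, 14 and 0 domains, with medians of 1209 and 1466 bp, 21.7% of ART in blocks, 60.9% and 92.9% shared, and 0% and 0% near Arteridin; the NC share could then not be given. The shares of 0% near Arteridin rest on 23 ART and 14 PSR domains, too few to say that such domains lack Arteridin peaks nearby. With all sequences NC had 4 wide peaks. A block gap of 10 kb gave 25.5% and 28.0% in blocks.

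Sharing of ART and PSR was 16.5% and 29.0% by a reciprocal overlap of 50%. It was 20.8% of ART with a wide partner, 18.9% of ART by the middle base and 40.2% of PSR with centres within 1000 bp. Alternatives chosen after seeing the data gave 9.03% and 23.9% outside blocks, 1.68% and 6.0% at a level under 2, 3.05% and 5.77% under 5, and 15.2% and 32.4% under 10. The share of ART and PSR domains near Arteridin was 2.36% and 1.87% by overlap, 16.0% and 23.4% within 50 kb, 0.472% and 0.935% for Arteridin peaks at 5 or above in −log10 q, and 2.78% and 1.49% outside blocks. Without the chromosome 1 site that has most Arteridin peaks, those near wide domains at a level of 5 or more numbered 4 in ORF and 2 in CTR. The unknown depth and the single library per condition limit every comparison between the lists.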
